A study of Homo sapiens with 4 samples.

Results

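The 10 genes MTOR, RPTOR, RICTOR, DEPTOR, TSC1, TSC2, RRAGC, RRAGD, CASTOR1 and SESN3 encode subunits of the mTOR complexes, their brake, and parts of the route by which amino acids reach mTOR. They were taken by gene symbol from a table of 61806 genes and all 10 were found. RNA had been sequenced from 2 human bone cancer cell lines held in suspension, the chondrosarcoma line JJ012 and the osteosarcoma line 143B. Each line had 1 untreated library and 1 library from cells given 1 mM melatonin for 72 h, so that 4 libraries were compared and none had a replicate. The columns of the table carry the name of the line, and the suffix T was read as treated. No gene was targeted in either line.

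mTOR is a kinase that works in 2 complexes. Complex 1 is defined by Raptor (RPTOR), drives protein synthesis and growth, and needs amino acids. Complex 2 is defined by Rictor (RICTOR) and phosphorylates AKT and related kinases. Amino acids act through the Rag GTPases, in which RagA or RagB pairs with RagC or RagD and brings complex 1 to the lysosome, while the TSC1 and TSC2 proteins switch off RHEB, the GTPase that activates it there. CASTOR1 senses arginine, and the sestrins, which bind leucine or respond to stress, hold the pathway back when amino acids are short.

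Values are given as counts and as FPKM, the counts divided by exonic length and by the library total. FPKM allows for length when genes are set against each other. The authors' table holds 1 exonic length per gene for all libraries, whatever transcripts were expressed. Orders and ratios of levels between genes depend on that length, and the counting intervals do not cover this. The log2 fold change was taken from FPKM with 1 added, which understates the change of low genes. Genes under 1 FPKM in both libraries of a pair were not compared, and the others were called higher or lower once the log2 fold change reached 0.58 in either direction. The ratio of CPM (counts divided by the library total alone) was given its exact (Clopper-Pearson) 95% interval, and intervals for FPKM are exact Poisson intervals. Such intervals cover counting error only, so that a difference beyond the interval is one between libraries, and the spread between cultures is unknown. The libraries held between 15889564 and 19218343 counts. Across protein-coding genes, which are not replicates, the log2 fold change after melatonin had a Spearman correlation with exonic length of 0.399 in JJ012 and -0.127 in 143B. For the JJ012 control over the 143B control the correlation was -0.296. Values with this trend removed stand beside some of the results they move, mostly those after melatonin. Rescaling to TPM placed the median gene of JJ012 at 0.27 in place of 0.01 on the log2 scale. Of the chondrocyte markers, SOX9 was at 15.06 FPKM in the JJ012 control and 15.48 FPKM in the 143B control, whereas COL2A1, ACAN and COL9A1 lay below 0.1 FPKM in both JJ012 libraries, and 2 of 6 markers reached 1 FPKM in the control and 1 after melatonin. Of the osteoblast markers, RUNX2 was at 4.28 FPKM in the 143B control and 3.02 FPKM in the JJ012 control, SPP1 was at 0.40 and 79.39 FPKM there, and SP7 and IBSP lay below 0.1 FPKM in both 143B libraries, with 2 of 6 at 1 FPKM or more, so the RNA of neither line carried the full marker list of its label. The marker sums were lower after melatonin in both lines, although no single marker was called in 143B. In JJ012, the summed chondrocyte markers were 17.68 FPKM before and 7.13 FPKM after it, SOX9 falling to 6.16 FPKM, and 8 epithelial, endothelial and immune markers summed to 20.71 and 12.28 FPKM, with 4 and 3 of them at 1 FPKM or more and CDH1 below 0.1 FPKM in both. Of these, the T-cell marker CD3E fell in JJ012 from 9.73 to 3.28 FPKM (497 and 141 counts, with 0 in 143B). PECAM1 fell there from 1.81 to 0.66 FPKM and CD68 from 3.30 to 2.15 FPKM, whereas KRT8 was at 5.46 FPKM before and 5.99 FPKM after melatonin. PTPRC was at 0.14 and 0.02 FPKM. The fall of the sum was thus not shared by every marker. The summed osteoblast markers of JJ012 were 83.82 and 67.43 FPKM. In 143B, the summed chondrocyte markers were 16.77 FPKM before and 13.05 FPKM after melatonin. The osteoblast markers summed to 6.48 and 4.74 FPKM there, and the epithelial, endothelial and immune markers to 14.27 and 12.95 FPKM. After melatonin in 143B, SOX9 was at 12.09 FPKM and RUNX2 at 2.75 FPKM. The part of the markers in the results of either line was not tested.

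In JJ012, 9 of the 10 genes were compared after melatonin, 1 was called higher (RICTOR) and 0 lower, that is 11.1% called, while 38.2% of the 15794 genes compared were called (19.6% higher and 18.6% lower). In 143B, 9 genes were compared, 1 was called higher (SESN3) and 1 lower (RPTOR), or 22.2%, while 12.7% of 14135 genes were called (6.09% higher and 6.65% lower). Between the untreated lines, 4 of 9 genes were called (44.4%), with MTOR and RRAGC higher in JJ012 and RICTOR and RRAGD lower, against 68.7% of 16929 genes (41.3% higher and 27.4% lower in JJ012). These counts depended on the scaling. In JJ012, TPM gave 5 members higher and 0 lower (RICTOR, MTOR, RRAGC, TSC1 and DEPTOR), with 34.6% of all genes higher and 15.7% lower. CPM and a pseudocount of 0.1 each gave 2 members higher and 1 lower, with 39.5% and 48.6% of all genes called. TMM factors gave 3 members higher and 0 lower, with 39.2% of all genes called. Between the untreated lines the median of all genes compared was 0.29. With a pseudocount of 0.1, 4 members were called higher and 3 lower, and 75.2% of all genes were called. Centring on the median, TPM, TMM factors and median-of-ratios size factors each gave 1 member higher and 4 lower (all genes 32.6% higher and 34.5% lower when centred). The call of RRAGC was lost with each of those 4 scalings (0.37 to 0.46) and with the length trend removed (0.34). By counting error alone, 5 of the 10 were above and 1 below their control in JJ012 (36.9% and 35.2% of all genes compared), 3 were above and 3 below in 143B (28.4% and 23.5%), and 5 were higher and 4 lower in untreated JJ012 than in untreated 143B (50.8% and 35.1%). The median log2 fold change of the genes compared was 0.24 in JJ012 and -0.10 in 143B, with 0.01 and 0.03 over all genes compared.

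**Figure D1:**
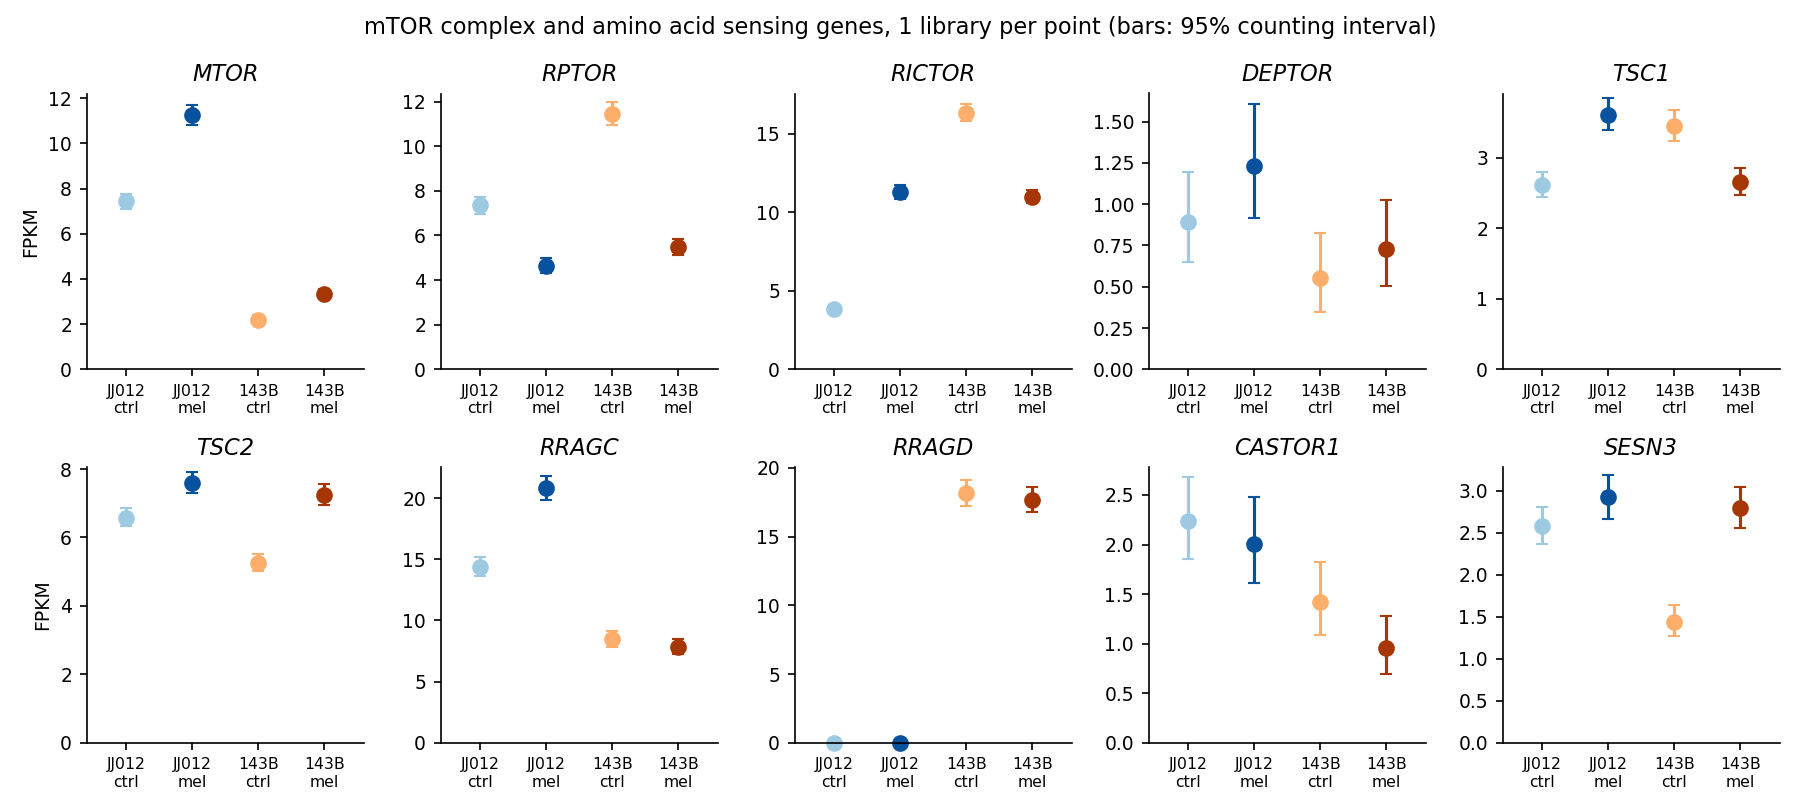
FPKM (vertical axes, linear, each from 0) of the 10 genes in the 4 libraries, with JJ012 in blue, 143B in orange, controls light and melatonin dark. Each point is 1 library and bars are 95% counting intervals. RRAGD lies at 0.01 and 0.00 FPKM in JJ012 and near 18 FPKM in 143B, and RPTOR is the lower of each pair after melatonin.

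MTOR (ENSG00000198793, chromosome 1) encodes the kinase shared by both complexes. Untreated JJ012 gave 1911 counts and treated JJ012 gave 2431, or 7.44 and 11.26 FPKM. The corresponding 143B libraries gave 462 and 764 counts, or 2.17 and 3.33 FPKM. The gene was higher after melatonin in both lines beyond counting error, by 1.51-fold in CPM in JJ012 (1.43 to 1.61) and by 1.53-fold in 143B (1.36 to 1.72). Its log2 fold changes, 0.54 and 0.45, lay under the threshold of 0.58. They were past it in both lines with CPM (0.59 and 0.60), TMM factors (0.67 and 0.61) and a pseudocount of 0.1 (0.59 and 0.60), in JJ012 also with TPM (0.85), and with the length trend removed the value in JJ012 was 0.24. The difference between the 2 changes was -0.02 on the log2 scale of CPM (-0.20 to 0.17). In bulk RNA, fewer cells that express a gene and less of its RNA per cell cannot be told apart. Before treatment, MTOR was 3.42-fold higher in JJ012 than in 143B by CPM (3.09 to 3.79), an interval that does not cover the scaling. Its log2 difference between the untreated lines was 1.41, and it lay between 1.13 and 1.74 under 7 other scalings and settings.

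RPTOR (ENSG00000141564, chromosome 17, positions 80544819 to 80966371 on the plus strand) encodes Raptor, which recruits the substrates of complex 1. Untreated JJ012 gave 1455 counts and treated JJ012 gave 771, or 7.35 and 4.64 FPKM. In 143B it fell from 1875 to 966 counts, or from 11.45 to 5.46 FPKM. By CPM it was 1.58-fold lower in JJ012 (1.45 to 1.73) and 2.10-fold lower in 143B (1.94 to 2.27). RPTOR was the single member below its control beyond counting error in both lines, a pattern that 8.48% of the 11822 genes compared in both lines shared. The log2 fold change was -0.95 in 143B and -0.57 in JJ012, where it lay just short of the threshold and became -0.86 with the length trend removed. It stayed below 0 under each of 7 other scalings and settings, between -0.86 and -0.37 in JJ012 and between -1.09 and -0.95 in 143B. The fall on the log2 scale of CPM was 0.40 larger in 143B than in JJ012 (0.23 to 0.57).

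RICTOR (ENSG00000164327, chromosome 5, positions 38937920 to 39074399 on the minus strand) encodes the defining subunit of complex 2. It rose in JJ012 from 997 to 2464 counts, or from 3.83 to 11.27 FPKM, whereas untreated 143B gave 3519 counts and treated 143B gave 2558, or 16.36 and 11.01 FPKM. The lines thus differed 4.27-fold in CPM before treatment, with JJ012 the lower (3.98 to 4.58), and lay at 11.27 and 11.01 FPKM after it. Both comparisons of the lines depended on the scaling. The log2 difference of the untreated lines was -1.85, and it lay between -2.42 and -1.57 under 7 other scalings and settings. For the treated libraries, the TMM factors were 1.09 in JJ012 and 0.892 in 143B. By CPM the change was 2.94-fold upward in JJ012 (2.73 to 3.17) and 1.49-fold downward in 143B (1.41 to 1.56). The log2 fold change was 1.35 in JJ012, higher than that of 97.2% of the genes compared, and -0.53 in 143B, under the threshold but past it with TPM (-0.62) and median-of-ratios size factors (-0.61). With the length trend removed the value in JJ012 was 1.04. RICTOR shares 7677 bases at its 3' end with OSMR on the other strand, and the strand setting of the counting is not given in the sources used here. OSMR had 43.76 and 38.29 FPKM in JJ012 and 50.19 and 43.11 FPKM in 143B, log2 fold changes of -0.19 and -0.21, so it did not move upward with RICTOR in JJ012.

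The levels of RPTOR and RICTOR relative to each other were therefore different after melatonin. RICTOR over RPTOR, per length, was 0.521 in the JJ012 control (0.480 to 0.566) and 2.43 after melatonin (2.24 to 2.64), a 4.66-fold difference (4.16 to 5.23). In 143B the ratio was 1.43 in the control (1.35 to 1.51) and 2.02 after melatonin (1.87 to 2.17), a 1.41-fold difference (1.29 to 1.55). This ratio does not depend on how libraries are scaled, and it was chosen after the values were seen. RPTOR over MTOR was 0.417 times its control value in JJ012 (0.375 to 0.463) and 0.311 times in 143B (0.271 to 0.358). RICTOR over MTOR was 1.94 times its control value in JJ012 and 0.440 times in 143B.

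Because RPTOR and RICTOR carried the largest changes of the complex genes, the 250 bases before their RefSeq starts (GRCh38.p14) are shown, with that of RRAGC, which is described further on. They are written 5' to 3' on the strand of each gene, in lower case, and capitals mark CACGTG, the core sequence bound by TFEB, TFE3 and other E-box factors. The windows are chr17:80544588-80544837 on the plus strand, chr5:39074400-39074649 on the minus strand and chr1:38859773-38860022 on the minus strand.
RPTOR: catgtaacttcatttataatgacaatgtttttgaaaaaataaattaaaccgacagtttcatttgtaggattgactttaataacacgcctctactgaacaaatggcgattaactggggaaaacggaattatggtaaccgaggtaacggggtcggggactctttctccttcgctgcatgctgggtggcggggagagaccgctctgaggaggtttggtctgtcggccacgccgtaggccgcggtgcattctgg
RICTOR: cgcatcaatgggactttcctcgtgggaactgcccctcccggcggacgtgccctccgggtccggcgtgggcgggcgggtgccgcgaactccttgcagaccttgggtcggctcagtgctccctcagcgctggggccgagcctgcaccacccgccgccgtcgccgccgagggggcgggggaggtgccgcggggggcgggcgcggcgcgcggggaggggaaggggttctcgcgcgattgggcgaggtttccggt
RRAGC: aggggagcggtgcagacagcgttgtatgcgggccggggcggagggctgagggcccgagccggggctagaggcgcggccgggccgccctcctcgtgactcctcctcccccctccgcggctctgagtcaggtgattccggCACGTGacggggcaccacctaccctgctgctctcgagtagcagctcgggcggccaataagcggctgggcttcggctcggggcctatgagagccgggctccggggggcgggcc
The RPTOR window had 47.2% GC and 15 CpG, and the RICTOR window 76.0% GC and 35 CpG, against medians of 58.0% and 11 over 35116 promoter windows of this length. CACGTG, which reads the same on both strands, was found in the RRAGC window, 112 bases before the start, and not in the other 2 shown. Of all windows, 6.34% held it. RefSeq windows were found for 8 of the 9 members looked up, and TSC2 was the other member with CACGTG. It lay 114 bases before the start in a window that overlaps NTHL1 (chr16:2047735-2047984). Another TSC2 window, for a RefSeq start further on (chr16:2047952-2048201), did not hold it. The RefSeq start used for TSC1 lay 2258 bases from the start in the authors' table. CCAAT or ATTGG was found in the windows of MTOR, RICTOR, RRAGC and CASTOR1, and in 32.0% of all windows. TGTTTAC or GTAAACA, a forkhead sequence, was found in 0 of the members' windows and in 2.98% of all.

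DEPTOR (ENSG00000155792) encodes an inhibitor found in both complexes and was the lowest member in both 143B libraries and the lowest but RRAGD in JJ012. It had 45 and 52 counts in JJ012 and 23 and 33 counts in 143B. This is 0.89 and 1.23 FPKM in JJ012, where it was compared only through its treated library, and 0.55 and 0.73 FPKM in 143B. The CPM ratio was 1.38 in JJ012 (0.905 to 2.10) and 1.33 in 143B (0.757 to 2.37), so no change was detectable at this depth.

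TSC1 and TSC2 encode hamartin and tuberin, the scaffold and the GTPase-activating subunit of the TSC complex. For TSC1 (chromosome 9), JJ012 gave 884 counts untreated and 1026 treated, or 2.61 and 3.61 FPKM, and 143B gave 965 and 803 counts, or 3.45 and 2.66 FPKM. It was thus higher after melatonin in JJ012 and lower in 143B, beyond counting error in each line, by 1.38-fold (1.26 to 1.51) and 1.30-fold (1.18 to 1.43). The log2 fold changes, 0.35 and -0.28, lay under the threshold, and that in JJ012 was 0.69 with TPM and -0.01 with the length trend removed, TSC1 having 17600 exonic bases.

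TSC2 (chromosome 16) had 2420 and 2347 counts in JJ012, or 6.58 and 7.60 FPKM, and 1599 and 2381 counts in 143B, or 5.26 and 7.25 FPKM. It was higher after melatonin in both lines, by 1.16-fold in CPM in JJ012 (1.09 to 1.22) and by 1.38-fold in 143B (1.29 to 1.47), and MTOR and TSC2 were the members for which this held in both. Of all genes compared in both lines, 14.2% did so. The log2 fold changes were 0.18 and 0.40, under the threshold, and in JJ012 the value was -0.21 with the length trend removed. TSC2 shares 784 bases with PKD1 on the other strand, which had log2 fold changes of -0.13 and -0.10. TSC2 over TSC1, per length, was 2.52 untreated and 2.105 treated in JJ012, whereas in 143B it was 1.525 untreated and 2.73 treated, 1.79-fold higher (1.60 to 2.00).

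**Figure D2:**
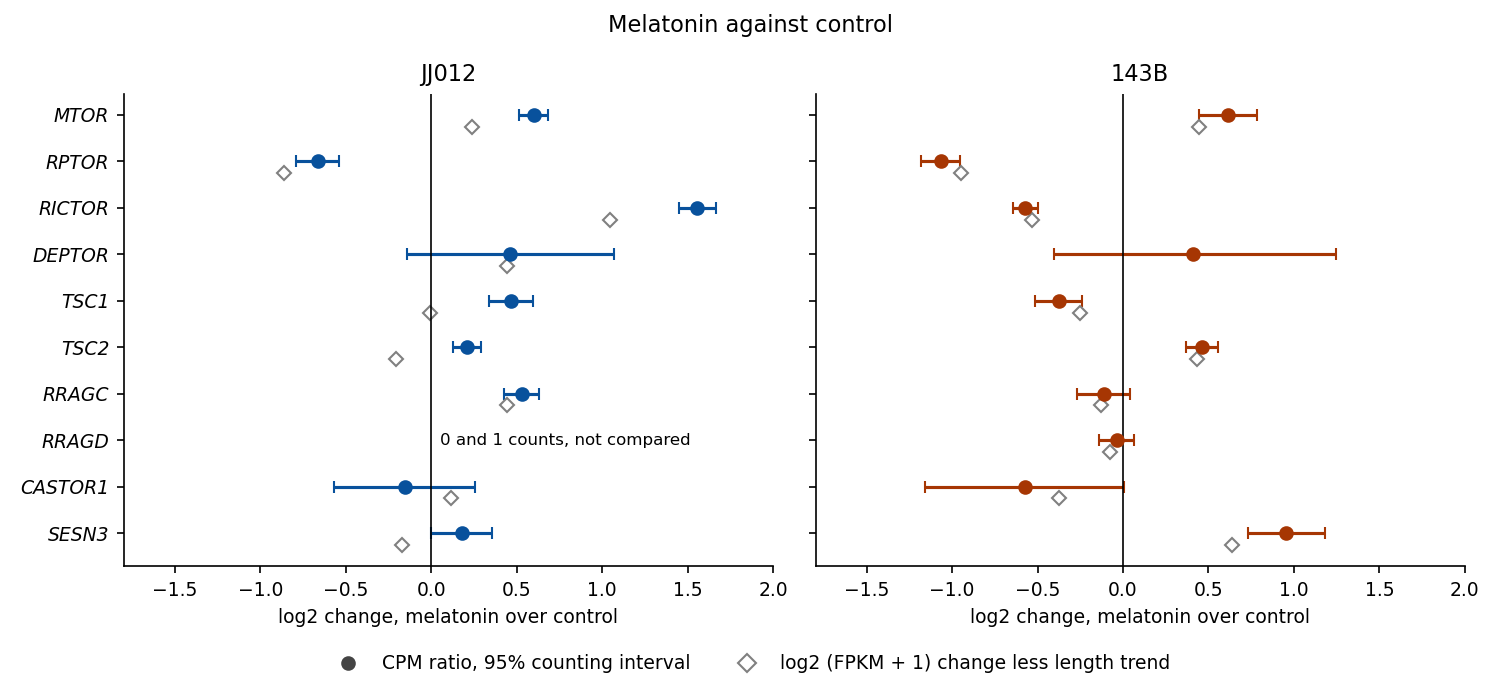
Log2 change after melatonin (horizontal axes) of the 10 genes in JJ012 (left) and 143B (right). Filled points are CPM ratios with 95% counting intervals and open diamonds are log2 changes of FPKM + 1 with the trend over exonic length removed, drawn for genes that passed the filter. RPTOR lies below 0 in both panels, RICTOR at 1.56 in JJ012 and -0.57 in 143B, and the diamonds of TSC1 and TSC2 in JJ012 lie at -0.01 and -0.21.

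RRAGD differed far more between the lines than after melatonin in 143B. For RRAGC, which difference was larger depended on the scaling. Its log2 difference between the untreated lines was 0.70 and its change in JJ012 was 0.50, against 0.37 and 0.79 with TPM. Of all genes compared, 68.7% were called between the untreated lines, 38.2% after melatonin in JJ012 and 12.7% after it in 143B. RRAGD (ENSG00000025039, chromosome 6, positions 89364616 to 89412273 on the minus strand), encoding RagD, had 1 count in untreated and 0 in treated JJ012. The 143B libraries gave 1469 counts untreated and 1546 treated, or 18.15 and 17.68 FPKM, the highest FPKM of the 10 genes there. Among controls the CPM ratio of 143B to JJ012 was 1777, with an interval from 318 to 70220 that reflects the single count in JJ012. Among treated libraries, with the 0 counts of JJ012 taken at the floor of 3 counts (0.186 CPM), RRAGD was at least 485-fold higher in 143B. Its CPM ratio after melatonin in 143B was 0.974 (0.907 to 1.05), and no ratio could be formed in JJ012. On one side the neighbouring UBE2J1 was at 20.94 FPKM in untreated JJ012 and 22.64 FPKM in untreated 143B. On the other side ANKRD6 was at 0.11 and 1.06 FPKM and LYRM2, the gene after it, at 5.11 and 1.34 FPKM.

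RRAGC (ENSG00000116954, chromosome 1), encoding RagC, gave 1416 counts in untreated and 1718 in treated JJ012, or 14.40 and 20.80 FPKM, the highest level of the 10 genes in both JJ012 libraries. The 143B libraries gave 689 and 688 counts, or 8.48 and 7.83 FPKM. By CPM it was 1.44-fold higher after melatonin in JJ012 (1.34 to 1.55) and 0.924 times its control in 143B (0.831 to 1.03). The log2 fold change in JJ012, 0.50, lay under the threshold, was past it with TPM (0.79) and TMM factors (0.60), and was 0.44 with the length trend removed. The change was 0.64 larger in JJ012 than in 143B on the log2 scale of CPM (0.46 to 0.83). RRAGC was 1.70-fold higher in JJ012 than in 143B among controls (1.55 to 1.86) and 2.66-fold higher among treated libraries (2.43 to 2.90).

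RRAGA and RRAGB, which encode their partners, also differed by line. RRAGA, encoding RagA, gave 19 counts in untreated and 10 in treated JJ012 (0.62 and 0.39 FPKM), with 3616 and 3317 counts in 143B (142.32 and 120.85 FPKM). It was 230-fold lower in JJ012 among controls by CPM (147 to 383). RRAGB, encoding the close relative RagB, had 771 and 670 counts in JJ012 (14.78 and 15.29 FPKM) and 55 and 77 counts in 143B (1.27 and 1.65 FPKM), 11.6-fold higher in the JJ012 control (8.81 to 15.5). RRAGB thus made 96.0% and 97.5% of the summed FPKM of the pair in JJ012, and RRAGA made 99.1% and 98.7% in 143B. RRAGC made 99.9% or more of the RRAGC and RRAGD sum in JJ012, and 31.8% and 30.7% in 143B, where RRAGD made 68.2% and 69.3%. The GENCODE 29 transcripts of RRAGA and RRAGB share 0 sequences of 50 bases, and those of RRAGC and RRAGD also share 0. Of the genes after RRAGA on chromosome 9, HAUS6 was at 66.03 FPKM in untreated JJ012 and 21.67 FPKM in untreated 143B. PLIN2, the gene after it, was at 6.98 and 544.90 FPKM and DENND4C, the next, at 15.90 and 33.47 FPKM. SAXO1, on the other side, was at 0.01 FPKM in both.

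**Figure D3:**
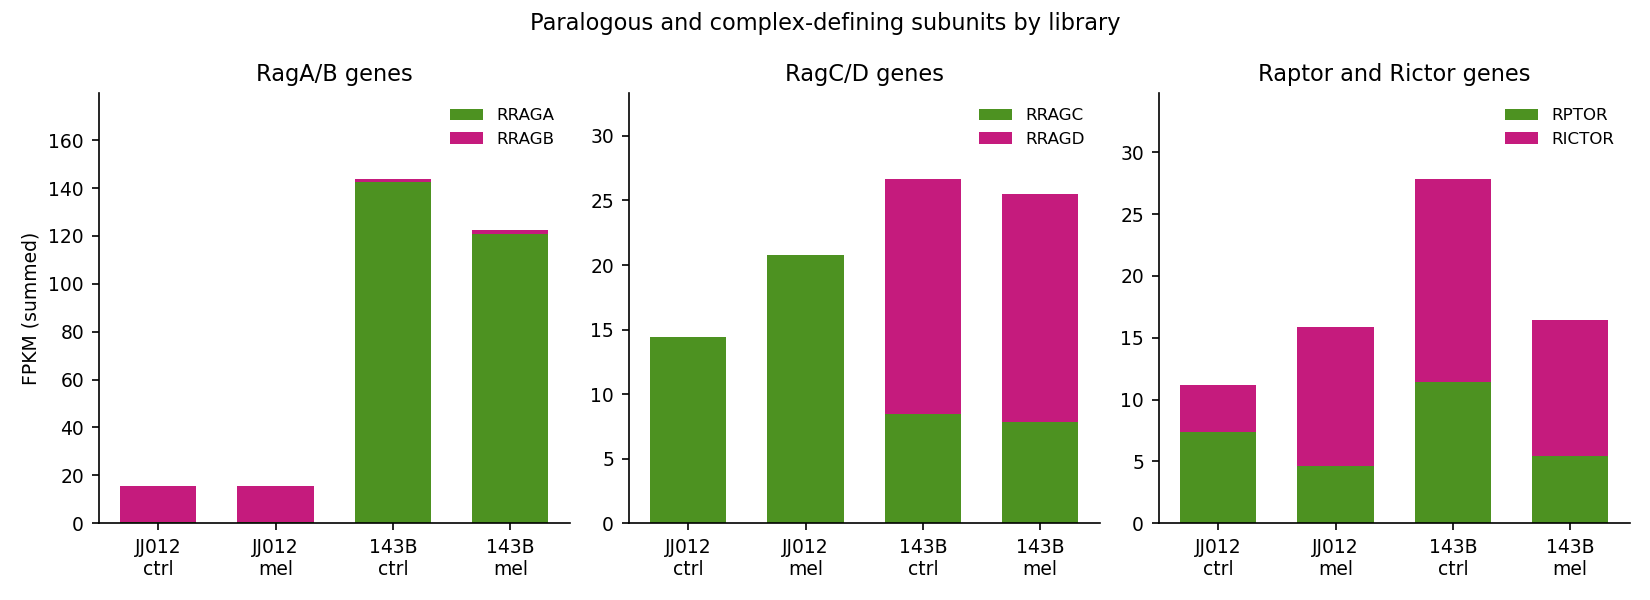
Stacked FPKM (vertical axes, from 0) of RRAGA and RRAGB, of RRAGC and RRAGD, and of RPTOR and RICTOR in the 4 libraries, 1 bar per library and without replicates. JJ012 is filled by RRAGB and RRAGC, whereas 143B is filled by RRAGA with RRAGC and RRAGD. The RICTOR part of the last panel is 34.3% and 70.8% in JJ012 and 58.8% and 66.8% in 143B.

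SESN3 (ENSG00000149212, chromosome 11) encodes sestrin 3. It rose in 143B from 242 to 507 counts, or from 1.44 to 2.79 FPKM, while JJ012 gave 524 counts untreated and 498 treated, or 2.58 and 2.92 FPKM. By CPM the rise was 1.94-fold in 143B (1.66 to 2.27) with a log2 fold change of 0.64, higher than that of 95.1% of the genes compared, while the ratio in JJ012 was 1.13 (0.999 to 1.28) and its log2 fold change of 0.13 became -0.17 with the length trend removed. The change was 0.78 larger in 143B on the log2 scale of CPM (0.49 to 1.06). SESN3 made 21.8% and 35.1% of the summed FPKM of the 3 sestrins in untreated and treated 143B, where SESN2 had 4.44 and 4.32 FPKM and SESN1 had 0.74 and 0.84 FPKM. In JJ012 its share was 24.7% in the control and 21.9% after melatonin.

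CASTOR1 (ENSG00000239282, chromosome 22) had 118 and 89 counts in JJ012, or 2.24 and 2.01 FPKM, and 62 and 45 counts in 143B, or 1.42 and 0.96 FPKM. The CPM ratio was 0.898 in JJ012 (0.674 to 1.19) and 0.672 in 143B (0.447 to 1.00). Both intervals included 1, so a change in this arginine sensor was not detectable at this depth, and its sign in JJ012 turned with TPM and with the length trend removed. The related CASTOR2 was lower, at 1.21 and 1.03 FPKM in JJ012 and 0.53 and 0.69 FPKM in 143B.

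By FPKM, the order in the JJ012 control ran from RRAGC through MTOR, RPTOR, TSC2, RICTOR, TSC1, SESN3 and CASTOR1 to DEPTOR and RRAGD. The counting intervals of MTOR and RPTOR overlapped there, as did those of TSC1 and SESN3 and of SESN3 and CASTOR1. After melatonin RICTOR moved to the second place, level with MTOR (11.27 and 11.26 FPKM), and RPTOR lay under TSC2. In the 143B control the order was RRAGD, RICTOR, RPTOR, RRAGC, TSC2, TSC1, MTOR, SESN3, CASTOR1 and DEPTOR, in which only SESN3 and CASTOR1 overlapped as neighbours. After melatonin in 143B, RPTOR stood under RRAGC and TSC2, whose intervals overlapped.

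By the signs of their counting intervals, 2 of the 8 members compared in both lines moved in opposite directions, RICTOR and TSC1. Among the 11822 genes compared in both lines, 21.5% did so. The difference between the lines on the log2 scale of CPM was 2.13 for RICTOR (2.00 to 2.26) and 0.84 for TSC1 (0.66 to 1.03), with JJ012 the higher. No member was called in opposite directions at the threshold of 0.58, which 2.07% of the genes were. Over the 3 contrasts (melatonin in each line and JJ012 over 143B control), the genes nearest to RICTOR among 8528 protein-coding genes included EPHA2 and NUFIP2, at Euclidean distances of 0.18 and 0.232 in log2 units. EPHA2, for example, was at 1.22 and 4.13 FPKM in JJ012 and at 6.60 and 3.93 FPKM in 143B. These distances rest on 4 libraries.

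The remaining machinery was read from 7 lists with 75 genes. In JJ012, 70 of them were compared, and 14 were called higher and 8 lower (31.4%, with 38.2% over all genes). The split was 24 higher and 1 lower (LAMTOR4) with TPM, so that every other pathway gene called lower in JJ012 lay short of the threshold there. With the length trend removed it was 7 higher and 8 lower. The median log2 fold change of the 70 genes was -0.05, which was 0.22 with TPM and -0.02 with the length trend removed. In 143B, 1 of 68 was called higher and 1 lower (2.94%, with 12.7% over all genes), and the median was 0.07. Between the untreated lines, 32 of 74 were called higher in JJ012 and 10 lower (56.8%, with 68.7% over all genes), and 29 higher and 17 lower with TPM. The shares called in single lists stand below, to be read against 38.2% of all genes in JJ012 and 12.7% in 143B.

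Among the partners and assembly factors of the mTOR complexes, 1 of 7 was called in JJ012 (14.3%) and 0 of 8 in 143B. TTI1, which helps to fold and assemble mTOR and related kinases, rose in JJ012 from 8.17 to 18.64 FPKM (log2 fold change of 1.10). MLST8, the subunit that both complexes share, was 8.88 FPKM in the JJ012 control and 3.71 FPKM in the 143B control. AKT1S1, encoding the inhibitor PRAS40, was 9.81 and 4.72 FPKM there.

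Of the Rag, Ragulator and folliculin genes, 2 of 9 rose and 3 fell in JJ012 (55.6% called), and 0 of 10 rose and 1 fell in 143B. FNIP2 and FNIP1 encode the partners of folliculin, the GTPase-activating protein for RagC and RagD. FNIP2 rose in JJ012 from 7.67 to 31.94 FPKM (log2 fold change of 1.93) and FNIP1 from 9.70 to 22.35 FPKM (1.13). With the length trend removed these were 1.60 and 0.85. Of the 5 LAMTOR genes, which encode Ragulator, the lysosomal anchor of the Rags, 3 fell in JJ012. LAMTOR4 fell from 19.59 to 8.66 FPKM, LAMTOR1 from 19.45 to 10.69 FPKM and LAMTOR5 from 45.93 to 27.65 FPKM, with log2 fold changes of -1.09, -0.81 and -0.71. With the length trend removed, these short genes were at -0.76, -0.59 and -0.45, the last under the threshold. The other two were not called, LAMTOR2 with a log2 fold change of -0.51 and LAMTOR3 with -0.06. In 143B, FLCN, the folliculin gene, fell from 12.37 to 6.87 FPKM (log2 fold change of -0.76). LAMTOR2 was 37.84 FPKM in the JJ012 control and 1.48 FPKM in the 143B control.

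In GATOR and KICSTOR, the complexes that relay amino acid shortage to the Rags, 3 of 11 genes rose and 1 fell in JJ012 (36.4% called), and 1 of 10 rose in 143B. SEH1L, a GATOR2 subunit that also serves the nuclear pore, rose in both lines, with 6.16 FPKM before and 11.49 FPKM after treatment in JJ012 and 3.07 and 5.27 FPKM in 143B, and had log2 fold changes of 0.80 and 0.62. In JJ012 the value was 0.50, under the threshold, with the length trend removed. MIOS, another GATOR2 subunit, fell in JJ012 from 16.41 to 9.42 FPKM (log2 fold change of -0.74, and -0.51 with TPM). It was 3.20 FPKM in the 143B control. Among the other sensors, 1 of 6 genes was called in JJ012 (16.7%) and 0 of 4 in 143B, and none of those called reached 5 FPKM.

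Of RHEB and the kinases above it, 4 of 11 genes rose and 0 fell in JJ012 (36.4% called), and 0 of 11 were called in 143B. PRKAA2, a catalytic subunit of the energy sensor AMPK, rose in JJ012 from 3.37 to 8.30 FPKM, PDPK1, which phosphorylates AKT and S6 kinase, from 5.35 to 10.93 FPKM, and TBC1D7, the third subunit of the TSC complex, from 3.77 to 6.53 FPKM. Their log2 fold changes were 1.09, 0.91 and 0.66, and 0.82, 0.57 and 0.41 with the length trend removed, the last pair under the threshold. DDIT4, a stress-induced inhibitor of complex 1, was the most abundant gene of the list in every library, at 413.38 FPKM in the 143B control and 99.37 FPKM in the JJ012 control.

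Among mTOR substrates, 1 of 10 rose and 1 fell in JJ012 (20.0% called), and 0 of 9 were called in 143B. LPIN1, a phosphatidate phosphatase, rose in JJ012 from 7.35 to 16.73 FPKM (log2 fold change of 1.09, and 0.73 with the length trend removed). EIF4EBP1, the translation repressor 4E-BP1, fell from 144.51 to 88.06 FPKM (-0.71, and -0.39 with the length trend removed). GRB10, an adaptor that dampens insulin signalling, was 25.41 FPKM in the 143B control and 0.19 FPKM in the JJ012 control. For the V-ATPase, the lysosomal proton pump that Ragulator binds, 2 of 16 genes rose and 3 fell in JJ012 (31.2% called) and 0 of 16 were called in 143B. ATP6V1B2 rose in JJ012 from 19.38 to 30.09 FPKM, while ATP6V0E1 fell from 107.75 to 64.60 FPKM and ATP6AP2 from 38.25 to 23.28 FPKM. With the length trend removed, the log2 fold changes of ATP6V1B2 and ATP6V0E1 were 0.33 and -0.38, under the threshold, and that of ATP6AP2 was -0.96. In the untreated lines, 11 of the 16 genes were higher in JJ012 and 0 lower, so that 68.8% were called, as were 68.7% of all genes (41.3% higher), with a median log2 difference of 1.35 against 0.29 over all genes compared, which was 0.65 with the length trend removed and 1.03 with TPM.

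**Figure D4:**
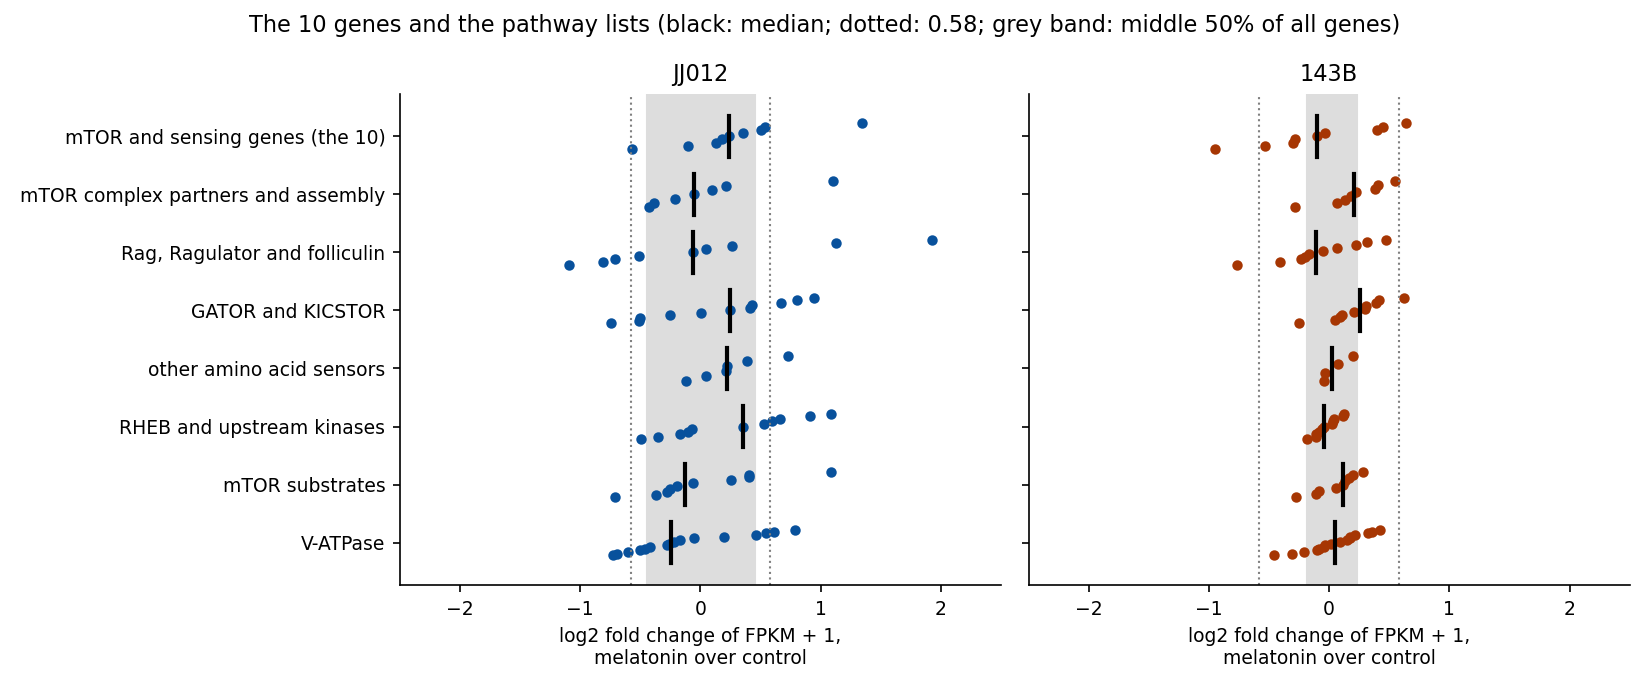
Log2 fold change of FPKM + 1 after melatonin (horizontal axes) for the 10 genes and the 7 pathway lists, in JJ012 (left) and 143B (right), with 1 point per gene that passed the filter. Black bars are medians, dotted lines mark 0.58 in either direction and the grey band holds the middle 50% of all genes compared. In JJ012 the points reach from -1.09 (LAMTOR4) to 1.93 (FNIP2), and in 143B the lowest point is RPTOR at -0.95.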

How the data were processed

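Poly(A) RNA of 4 libraries (JJ012 and 143B, control and 1 mM melatonin for 72 h, 1 library each) was sequenced as paired ends. The deposited values are raw counts of each gene, not normalized, and FPKM, which the authors made from counts normalized to exonic length and library total and rounded to 2 decimals. FPKM recomputed from the counts agree to within 0.005 FPKM. The submitters' processing notes name cutadapt 1.9.1, HISAT2 2.2.1, HTSeq 0.6.1, DESeq2 and hg38, without roles, and the strand setting is not given in the sources used here. Positions are those of the authors' table.

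The members and lists were chosen with earlier results of these data known. Log2 fold changes of FPKM with a pseudocount of 1 were called at 0.58, the fold threshold of the study, leaving out genes under 1 FPKM in both libraries compared. With 1 library per condition no test was run, and the quasi-likelihood test for counts was not used. CPM ratios have exact Clopper-Pearson 95% intervals, and ratios of ratios have normal-approximation intervals on log counts. Totals of 15889564 to 19218343 counts put the floor of 3 counts at 0.156 to 0.189 CPM. The length trend is a running median over 501 genes ordered by exonic length. Named genes are all members, and of each list at most 3 higher and 3 lower called genes per comparison with at least 5 FPKM, with the paralogues and neighbours of Rag genes, CASTOR2, SESN1, SESN2 and the overlapping genes added after their values were seen. Genes named only from the comparison of the untreated lines were chosen after their values were seen. For the gene nearest in pattern, Euclidean distance over 3 log2 differences was used. Not every gene that this rule names is reported here. Gene types and transcripts came from GENCODE release 29, and promoters from RefSeq (GRCh38.p14). Alternatives were a pseudocount of 0.1, no filter, a filter of 5 FPKM, TPM, CPM alone, with TMM factors or with median-of-ratios size factors, centring, removal of the length trend and a threshold of 1. Procedures were tested on simulated Poisson counts, which hold no spread between cultures and so cannot show how calls hold against it. Python 3.11.15, numpy 2.4.6, scipy 1.17.1, pandas 2.3.3, matplotlib 3.10.9, R 4.3.3 and edgeR 4.0.16 (TMM factors only) were used.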

Additional observations from a re-analysis of the deposited data

Results flagged for a closer look

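RICTOR and TSC1 moved in opposite directions in the cell lines after melatonin, beyond counting error in each. By the same criterion, 21.5% of the 11822 genes compared in both lines did so. The log2 fold change of RICTOR was 1.35 in JJ012 and -0.53 in 143B, and that of TSC1 was 0.35 in JJ012 and -0.28 in 143B. With 1 library per condition, the difference between the lines was not tested against the spread between cultures. For TSC1, the value in JJ012 was -0.01 once the trend over exonic length was removed, so that its opposite direction rested on that trend being kept, while RICTOR stayed at 1.04.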

How the results depend on the processing

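The number of members called in JJ012, 1 of 9, was 3 with a pseudocount of 0.1 FPKM, 5 with TPM (5 higher and 0 lower), 3 with CPM, 3 with TMM factors, 2 with median-of-ratios size factors and 2 with the length trend removed. Of all genes compared in JJ012, 38.2% were called in the main setting. With these 6 settings in turn, the share was 48.6%, 50.3%, 39.5%, 39.2%, 38.7% and 34.5%. TPM placed the median gene of JJ012 at 0.27 in place of 0.01 (log2). In 143B, 2 members were called, against 1 with a filter of 5 FPKM, which left 5 members, and 0 with a threshold of 1. The shares of all genes called there were 12.7%, 7.71% and 4.45%. Between the untreated lines 4 members were called (68.7% of all genes), and 7 with a pseudocount of 0.1 (75.2%). The 22 of 70 pathway genes called in JJ012 were 6 at a threshold of 1, where 14.7% of all genes were called. The 2 of 68 in 143B were 7 with a pseudocount of 0.1, 4 with TPM, 5 with CPM, 5 with TMM factors and 0 at a threshold of 1. Of all genes compared in 143B, 20.9%, 19.3%, 11.4%, 12.1% and 4.45% were called with these settings in turn. The 42 of 74 pathway genes called between the untreated lines were 27 at a threshold of 1, where 47.2% of all genes were called. The other settings left the totals of members and of pathway genes within 1.5 times, but not their directions. The 14 higher and 8 lower pathway genes in JJ012 were 24 and 1 with TPM and 7 and 8 with the length trend removed, and the 32 and 10 between the untreated lines were 29 and 17 with TPM or TMM factors. Of 207 recomputed log2 fold changes of single members, 145 moved by no more than the half-width of their counting interval, 62 moved further and 0 called values changed sign. Values under the threshold did change sign under some settings, for TSC1, TSC2, CASTOR1 and SESN3 in JJ012 and for TSC2 and CASTOR1 between the untreated lines. There, TSC2 was 0.28 and became -0.06 with TPM, and CASTOR1 was 0.42 and became -0.30 with the length trend removed. Added after seeing the data, the count of members with opposite directions was 2 with TMM factors, 2 with median-of-ratios size factors and 3 with TPM. The share of all genes with opposite directions was taken only in the main setting, where it was 21.5%. No replicate could be left out, since each condition had 1 library. No paired analysis was possible because, within a line, each condition had 1 library. A fit over both lines with the line as a term, which would treat the lines as replicates of 1 treatment effect, was not run. Depth limited DEPTOR and CASTOR1, with at most 118 counts in any library, and RRAGD in JJ012.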
